A study of Homo sapiens with 19 samples.

Results

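EZH2-/-/EZH1-/- H1 cells, which lack both catalytic subunits of Polycomb repressive complex 2 (PRC2), were compared with EED-/- H1 cells, which lack its EED subunit. The comparison took the samples that carry these genotype labels, 2 per line, or 4 of the 19 RNA-seq samples of the series. H1 is an established human embryonic stem cell (hESC) line. Per the study's methods, cells were grown on matrigel in defined medium, and each knockout replaced a functional domain (the SET domain of EZH1 or EZH2, the WD40 domain of EED) with a drug-resistance cassette by CRISPR/Cas9 and homologous recombination. The study made double knockouts in both orders, and by its naming EZH2-/-/EZH1-/- H1 came from EZH2-/- H1 by a further round of targeting. The genotype label names EZH1 before EZH2 and does not give the parent line, so the order of targeting in these samples is not known from it. The name used here is that of the double knockout whose transcriptome the study reports. The sample titles give the replicates separate clone names, with a joint name for EED-/- H1 replicate 1. The p-values below therefore rest on the spread between so few clones, pooled over all lines in each fit. SUZ12-/- H1, which lacks the remaining core subunit (2 samples), entered the statistical fit, and WT H1 (2 samples) is given as the control level. EZH1-/- H1 and EZH2-/- H1, each without 1 of the catalytic subunits (2 samples each), entered a wider fit of 12 samples, and 1 sample of EED-/-/EED-OE H1, at day 28 without doxycycline (DOX), was read against both lines.

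PRC2 places methyl groups on lysine 27 of histone H3 (H3K27me3), a mark of silent developmental genes. EZH1 and EZH2 carry the SET domain that transfers the methyl group and can replace each other in the complex. EED binds the finished mark and stimulates the enzyme, and SUZ12 holds the complex together. All 3 lines are reported by the study as PRC2-null and as differentiating in culture, so the comparison asks whether loss of the enzymes and loss of EED left cells with the same transcriptome. The labels do not give how long each clone had been in culture, and time in culture and genotype cannot be told apart in these samples. In bulk RNA, fewer cells of a type and less RNA per cell cannot be told apart either.

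The deposited values were TPM (transcript abundance relative to the sample total and corrected for gene length) for 33382 genes in each sample, with no read counts, so sequencing depth is unknown. Of these, 17028 reached 1 TPM in 2 or more of the 4 samples and were tested. EZH2-/-/EZH1-/- H1 replicate 2 stood apart. Its Spearman correlation with replicate 1 over these genes was 0.925, below that of replicate 1 with EED-/- H1 replicate 2 (0.967) and that of the EED-/- H1 replicates with each other (0.961). Replicates 1 and 2 of EZH2-/-/EZH1-/- H1 differed by at least 3-fold at 1060 genes, EED-/- H1 replicates at 355, SUZ12-/- H1 replicates at 36 and WT H1 replicates at 25. The difference followed transcript length. In the fifth of genes with the shortest transcripts, the median of replicate 1 less replicate 2 was -0.19 on the log2(TPM + 1) scale, and in the fifth with the longest it was 0.72, against 0.03 and 0.13 in EED-/- H1. The part of RNA quality or library preparation in this trend was not tested. Values without this sample are given beside several lists and genes whose difference moved with it.

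The targeted genes were read first. Because the design removes a domain and not the whole gene, a gene-level TPM need not fall. EED, the subunit deleted in EED-/- H1, stood at 14.25 and 22.36 TPM there and at 21.51 and 23.23 TPM in EZH2-/-/EZH1-/- H1. EZH2 stood at 31.28 and 20.03 TPM in EZH2-/-/EZH1-/- H1 and at 18.68 and 33.06 TPM in EED-/- H1. The samples of the lines overlapped for both genes, so neither level checks a label. EZH1 was at 9.37 and 6.78 TPM in EZH2-/-/EZH1-/- H1, below the 17.18 and 11.85 TPM in EED-/- H1, a difference that did not pass the test (log2 difference -0.77 ± 0.31 SE, adjusted p = 0.353, limma). SUZ12 was at 18.64 and 12.55 TPM against 25.57 and 21.21 TPM (log2 difference -0.57, adjusted p = 0.391; -0.31 without EZH2-/-/EZH1-/- H1 replicate 2). None of the 14 tested core and accessory PRC2 genes passed. Without overlap, 1 was higher in EZH2-/-/EZH1-/- H1 and 4 in EED-/- H1 (3 and 3 after median-ratio scaling), against 11.8% and 30.6% of all genes (19.9% and 21.0%).

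Few genes separated the lines beyond the spread between clones. With limma on log2(TPM + 1) over the 6 samples of the 3 PRC2-null lines, 1 gene was called higher in EZH2-/-/EZH1-/- H1 and 1 higher in EED-/- H1, with an adjusted p (Benjamini-Hochberg) no higher than 0.05 and a difference of 3-fold or more (0.00587% of the genes tested in each direction). The former was POU5F1 and the latter the histone gene HIST2H2AA3, which is uncertain (below). At an unadjusted p under 0.05 there were 2366 genes (13.9%). The spread in this fit is drawn partly from SUZ12-/- H1, whose replicates were closer than those of the lines compared. A limma fit of only the 4 samples compared called the same 2 genes. There NANOG (adjusted p = 0.54), CDH5 (0.544), PECAM1 (0.549) and CER1 (0.273), described below, did not pass. A fit of 12 samples, which adds WT H1, EZH1-/- H1 and EZH2-/- H1 and so draws its estimate of the spread partly from lines with close replicates, called 29 genes higher in EZH2-/-/EZH1-/- H1 (0.17%) and 83 higher in EED-/- H1 (0.487%). These 112 include POU5F1 but not HIST2H2AA3. Called below means called in this fit of 12 samples, unless the fit of the 3 lines is named. Leaving out EED-/- H1 replicate 1 kept 8 of the 29 and 15 of the 83, and leaving out EZH2-/-/EZH1-/- H1 replicate 2 kept 20 and 38. In each of the 4 fits that leave out 1 sample, 6 and 11 were called again, among them POU5F1, SST and AURKC in one direction and CD93, LYVE1, DLL4, ESM1, ALDH1A3 and MMP12 in the other.

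Over all genes tested, the median log2 difference (EZH2-/-/EZH1-/- H1 less EED-/- H1, as in all differences below) was -0.21, and it was 0.01 after median-ratio scaling. Both samples of EZH2-/-/EZH1-/- H1 lay above both of EED-/- H1 at 2009 genes (11.8%) and below them at 5205 (30.6%). After scaling these were 3397 (19.9%) and 3568 (21.0%). Counts of gene lists are set against these shares, and list medians against -0.21. With 2 samples a line, an exact permutation test cannot go below p = 0.333 for a single gene.

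**Figure D1:**
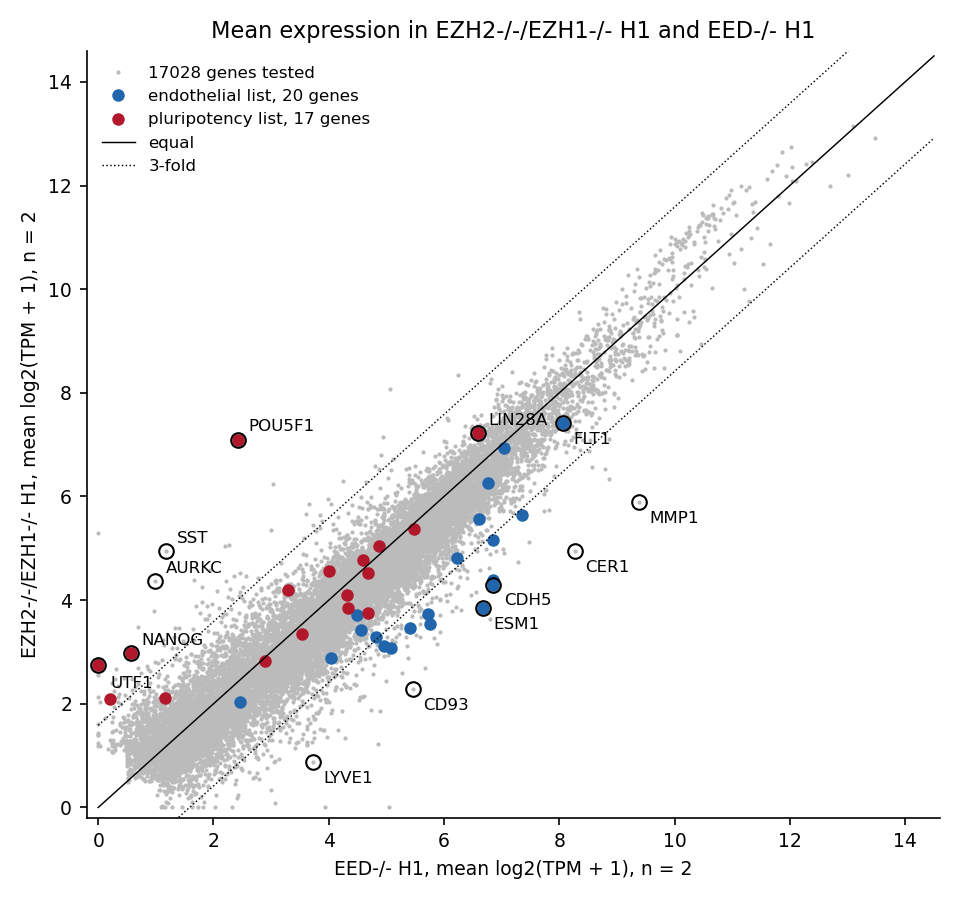
Mean log2(TPM + 1) of 2 samples in EZH2-/-/EZH1-/- H1 (vertical) against EED-/- H1 (horizontal) for the 17028 genes tested, with the endothelial (20 tested) and pluripotency (17 tested) lists coloured and named genes circled. POU5F1, SST and AURKC lie beyond the upper 3-fold line, and MMP1, CER1, ESM1, CD93 and LYVE1 beyond the lower.

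POU5F1 and 3 further genes of the pluripotent state were called higher in EZH2-/-/EZH1-/- H1. POU5F1 (ENSG00000204531, chromosome 6, 31164337 to 31180731, GRCh38) encodes OCT4, a transcription factor at the core of the pluripotency network. It stood at 123.06 and 149.79 TPM in EZH2-/-/EZH1-/- H1 and at 5.27 and 3.62 TPM in EED-/- H1. The groups were far apart, with means of 136 ± 18.9 and 4.45 ± 1.17 TPM (SD, n = 2), 30.7-fold. The log2 difference was 4.67 ± 0.36 (SE), with an adjusted p of 0.0436 in the fit of the 3 lines and 4.1e-05 in the fit of 12 samples. In the fit of the 3 lines the call was lost without EZH2-/-/EZH1-/- H1 replicate 2 (adjusted p = 0.149), without EED-/- H1 replicate 1 (0.494) and without EED-/- H1 replicate 2 (0.174), while the difference stayed between 4.45 and 4.89. WT H1 held 2530.98 and 2428.15 TPM and SUZ12-/- H1 91.04 and 47.03 TPM, so EED-/- H1 had the lowest level of the 3 null lines and all 3 were far below WT H1.

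NANOG, the other homeobox factor of that network, stood at 8.10 and 5.80 TPM in EZH2-/-/EZH1-/- H1 and at 0.60 and 0.37 TPM in EED-/- H1 (log2 difference 2.41; adjusted p = 0.206 in the fit of the 3 lines, 0.00986 in the fit of 12). ZSCAN10, a zinc finger factor of embryonic stem cells, was at 4.03 and 2.66 against 0.25 and 0.07 TPM. UTF1, a chromatin protein of undifferentiated cells, was at 2.01 and 13.99 TPM and listed at 0 in both EED-/- H1 samples, with a difference on the log2(TPM + 1) scale of 2.75, or 1.59 without EZH2-/-/EZH1-/- H1 replicate 2. These 3 genes and POU5F1 were the 4 called higher in EZH2-/-/EZH1-/- H1 among the 17 tested of the pluripotency list, and none was called in the other direction. Fewer members were called higher there without either EED-/- H1 replicate, and without replicate 1 POU5F1 alone stayed called. Without EZH2-/-/EZH1-/- H1 replicate 1 the calls in the list were no longer all in the same direction. The list's median stayed 0.31 to 0.88 above that of all genes when any sample was left out.

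Core factors did not all follow POU5F1. SOX2 stood at 7.09 and 24.47 TPM in EZH2-/-/EZH1-/- H1 and at 22.56 and 16.07 TPM in EED-/- H1, with overlapping samples. Its difference of -0.48 came to -1.31 without EZH2-/-/EZH1-/- H1 replicate 2 and to 0.34 without replicate 1. LIN28A, an RNA-binding protein of stem cells, was at 224.98 and 97.97 against 49.02 and 183.97 TPM, overlapping too. L1TD1, another RNA-binding protein, was at 20.39 and 14.59 against 7.47 and 10.21 TPM, without overlap and not called (adjusted p = 0.333 in the fit of the 3 lines). In all, 6 of the 17 were higher without overlap in EZH2-/-/EZH1-/- H1 and 0 in EED-/- H1, against 11.8% and 30.6% of all genes. The median difference was 0.19, or 0.40 above that of all genes (0.88 above without EZH2-/-/EZH1-/- H1 replicate 2). Every member named here was higher in both WT H1 samples than in either line except UTF1, which was at 8.22 and 7.15 TPM there.

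**Figure D2:**
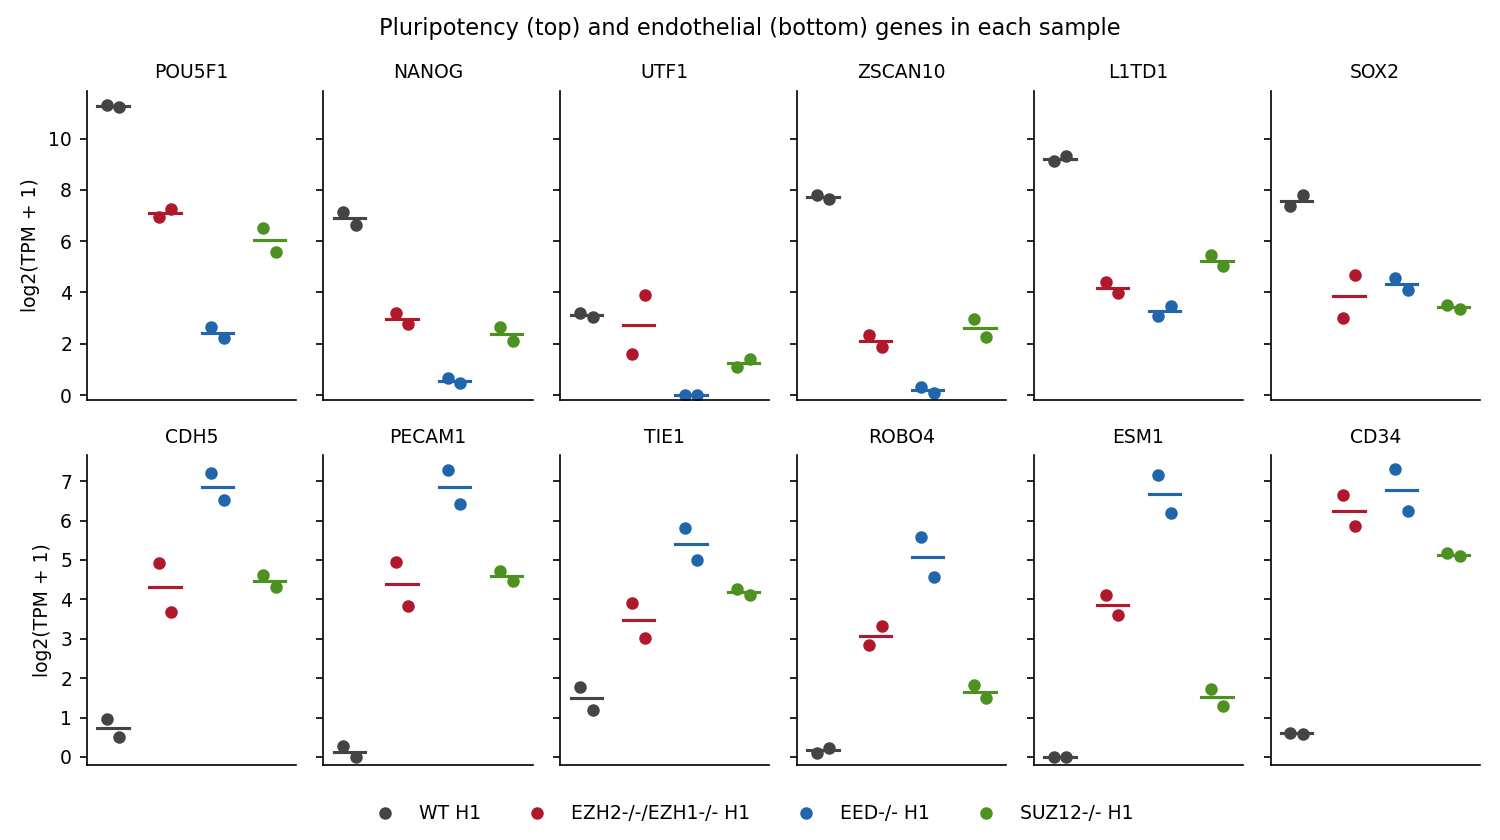
log2(TPM + 1) of each sample (points, 2 per line) and their mean (bars) for 6 pluripotency and 6 endothelial genes in WT H1, EZH2-/-/EZH1-/- H1, EED-/- H1 and SUZ12-/- H1. The first 4 pluripotency genes lie higher in EZH2-/-/EZH1-/- H1 than in EED-/- H1 and SOX2 does not, while CDH5, PECAM1, TIE1, ROBO4 and ESM1 lie highest in EED-/- H1 and CD34 overlaps.

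The groups with most called members are shown by their start regions. The runs below are the 250 bases before the annotated start of 2 called pluripotency genes and 2 called endothelial genes (RefSeq, GRCh38.p14, 5′ to 3′ on the gene's strand), with each CpG in capitals. CpG-rich starts are the usual sites of PRC2 in vertebrates. Only the letters CG were searched, which read the same on both strands. They lie at chr12:7789152-7789401 (plus strand), chr10:133229967-133230216 (plus), chr5:54985594-54985843 (minus) and chr11:124897866-124898115 (minus).
NANOG: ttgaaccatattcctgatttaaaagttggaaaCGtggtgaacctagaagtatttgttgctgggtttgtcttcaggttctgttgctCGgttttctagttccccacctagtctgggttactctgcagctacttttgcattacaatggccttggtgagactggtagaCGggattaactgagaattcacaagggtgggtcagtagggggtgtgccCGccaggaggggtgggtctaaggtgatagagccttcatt
UTF1: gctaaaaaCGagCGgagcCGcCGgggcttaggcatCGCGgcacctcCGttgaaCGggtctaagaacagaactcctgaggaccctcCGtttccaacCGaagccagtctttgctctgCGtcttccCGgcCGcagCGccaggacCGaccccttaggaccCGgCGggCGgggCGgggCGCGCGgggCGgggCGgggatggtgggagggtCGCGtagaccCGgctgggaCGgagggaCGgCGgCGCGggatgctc
ESM1: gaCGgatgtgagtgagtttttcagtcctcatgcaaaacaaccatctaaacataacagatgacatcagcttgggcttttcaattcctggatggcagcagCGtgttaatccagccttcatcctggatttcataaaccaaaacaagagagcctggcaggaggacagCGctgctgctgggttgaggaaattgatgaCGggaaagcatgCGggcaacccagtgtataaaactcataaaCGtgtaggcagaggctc
ROBO4: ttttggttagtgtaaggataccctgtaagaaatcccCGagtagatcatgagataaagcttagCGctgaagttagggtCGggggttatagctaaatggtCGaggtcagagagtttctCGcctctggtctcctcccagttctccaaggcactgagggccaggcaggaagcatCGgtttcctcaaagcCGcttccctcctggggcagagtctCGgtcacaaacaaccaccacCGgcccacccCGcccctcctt
NANOG had 4 CpG and UTF1 32, and ESM1 had 6 and ROBO4 10. Of 35116 promoters in the RefSeq table, 93.9% held at least 1 CpG in this window and the median was 11. As few CpG as NANOG were held by 34.3%, as ESM1 by 41.1%, as ROBO4 by 49.7% and as UTF1 by 91.9%. ZSCAN10 and TIE1, the other called members of these lists with a promoter in the table, held 3 and 1 CpG and are not printed. The 4 runs are examples chosen with these counts known, and no test over the lists was made.

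EED-/- H1 stood out by its endothelial genes. All 20 of the endothelial list were tested, 15 were higher without overlap in EED-/- H1 and 0 in EZH2-/-/EZH1-/- H1, against 30.6% and 11.8% of all genes. The median difference was -1.61, or -1.40 from that of all genes, -1.38 after scaling and -1.11 to -1.53 when any of the 4 samples was left out. CDH5 (VE-cadherin, ENSG00000179776, chromosome 16, 66366690 to 66404784), which joins endothelial cells, stood at 29.17 and 11.89 TPM in EZH2-/-/EZH1-/- H1 and at 145.93 and 90.07 TPM in EED-/- H1. It was at 0.95 and 0.43 TPM in WT H1. The difference of -2.55 ± 0.44 (SE) passed in the fit of 12 samples (adjusted p = 0.0188) but not in that of the 3 lines (0.281).

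PECAM1 (CD31), an adhesion molecule of the vessel lining, was at 29.83 and 13.17 TPM in EZH2-/-/EZH1-/- H1 and at 153.49 and 85.21 TPM in EED-/- H1, 5.55-fold between the means. ESM1 (endocan), secreted by activated endothelium, was at 16.29 and 11.07 against 140.79 and 71.88 TPM, 7.77-fold. TIE1, a receptor tyrosine kinase, was at 13.94 and 7.14 against 54.62 and 31.13 TPM. Its difference of -1.94 came to -1.5 without EZH2-/-/EZH1-/- H1 replicate 2. No sample of EZH2-/-/EZH1-/- H1 reached the lowest EED-/- H1 sample for these genes. ROBO4, a vascular roundabout receptor, was at 6.20 and 8.96 against 47.05 and 22.63 TPM. ICAM2, an adhesion ligand, was at 8.66 and 12.86 against 68.27 and 40.71 TPM. These 6 were the list's called members, and none was called in the other direction. The count was 5 without EZH2-/-/EZH1-/- H1 replicate 2 or after correction for transcript length, 13 without EZH2-/-/EZH1-/- H1 replicate 1, and 1 (ESM1, adjusted p = 0.0395) without EED-/- H1 replicate 1.

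The list was not uniform. KDR, the main receptor of VEGF, was at 79.59 and 14.69 TPM in EZH2-/-/EZH1-/- H1 and at 135.19 and 95.50 TPM in EED-/- H1, and its difference of -1.69 came to -0.51 without replicate 2. FLT1, another VEGF receptor, was at 310.70 and 93.53 against 258.77 and 276.03 TPM, and CD34, shared by endothelial and blood progenitors, at 98.58 and 57.31 against 156.07 and 74.45 TPM. Both overlapped, and the difference of CD34 was -0.51, or -0.13 without EZH2-/-/EZH1-/- H1 replicate 2. That of FLT1 was -0.64, or 0.22 without it. The list summed to 983.87 and 479.89 TPM in EZH2-/-/EZH1-/- H1, 1848.13 and 1388.03 TPM in EED-/- H1, 697.74 and 665.58 TPM in SUZ12-/- H1 and 181.18 and 196.05 TPM in WT H1.

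Further vascular genes outside the list were called, and were chosen after their values were seen. CD93, an endothelial surface glycoprotein, was at 5.71 and 2.54 TPM in EZH2-/-/EZH1-/- H1 and at 60.17 and 30.85 TPM in EED-/- H1, 11.0-fold. LYVE1, the hyaluronan receptor of lymphatic endothelium, was at 1.44 and 0.37 against 15.30 and 9.83 TPM. DLL4, a Notch ligand of sprouting and arterial endothelium, was at 3.60 and 1.87 against 19.36 and 16.25 TPM. ANGPT2, a ligand of the receptor TEK, was at 17.01 and 10.69 against 91.77 and 58.28 TPM. ADGRF5, an adhesion G protein-coupled receptor, was at 4.36 and 1.56 against 38.31 and 17.03 TPM. Each was several times higher in every EED-/- H1 sample. Of 16 blood genes 7 were tested and none was called. In EED-/- H1, 3 were higher without overlap and in EZH2-/-/EZH1-/- H1 0 were (2 and 1 after scaling). The shares of all genes were 30.6% and 11.8% (21.0% and 19.9%), and the list's median was -0.41. KLF1 and GATA1, which define red cells, were at or below 0.17 TPM in all 4 samples.

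Among genes of the TGF-beta and BMP pathway, 1 was called. These ligands act through SMAD proteins, and in hESCs the BMP ligands steer cells toward mesoderm, endoderm and extraembryonic fates. Among ligands, BMP4 was at 293.44 and 121.11 TPM in EZH2-/-/EZH1-/- H1 and at 92.47 and 207.14 TPM in EED-/- H1, so the lines overlapped, and both were far above the 2.50 and 3.25 TPM of WT H1. INHBA, which encodes the activin A subunit, was at 51.02 and 17.46 against 199.78 and 70.95 TPM, without overlap and not called, and its difference of -1.96 came to -1.21 without EZH2-/-/EZH1-/- H1 replicate 2. Among inhibitors, CER1, a secreted antagonist of NODAL and BMP, was at 36.64 and 24.17 against 463.47 and 203.04 TPM. Its difference of -3.32 ± 0.41 (SE), 11.0-fold between the means, was called (adjusted p = 0.0102 in the fit of 12 samples, 0.201 in that of the 3 lines). CER1 was at 17.46 and 15.75 TPM in SUZ12-/- H1, so the high level belonged to EED-/- H1 among these null lines.

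GREM1, an antagonist of BMP, was at 93.78 and 11.75 TPM in EZH2-/-/EZH1-/- H1 and at 215.35 and 145.82 TPM in EED-/- H1, not called, and its difference of -2.36 came to -0.91 without replicate 2. Among targets, ID1 was at 347.91 and 243.24 against 133.13 and 185.89 TPM, higher without overlap in EZH2-/-/EZH1-/- H1 and not called. CER1 was the only called gene of the 29 tested. Without overlap, 2 were higher in EZH2-/-/EZH1-/- H1 and 7 in EED-/- H1, both below the shares of all genes (11.8% and 30.6%). After scaling these were 5 and 5, also below the shares (19.9% and 21.0%). The list's median of -0.13 was 0.08 above that of all genes. The 33 tested WNT genes had no call and a median of -0.18.

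MMP1 and MMP12, which degrade matrix, and DCN of the matrix list were called higher in EED-/- H1. MMP1, the interstitial collagenase, was at 87.24 and 39.21 TPM in EZH2-/-/EZH1-/- H1 and at 1121.83 and 395.37 TPM in EED-/- H1, 12.0-fold between the means, and listed at 0 in both WT H1 samples. It was called (log2 difference -3.49, adjusted p = 0.0116 in the fit of 12 samples), as was MMP12, the macrophage elastase, at 1.08 and 1.56 against 17.52 and 7.25 TPM. Of the 22 matrix and mesenchyme genes, 12 were higher without overlap in EED-/- H1 and 0 in EZH2-/-/EZH1-/- H1, against 30.6% and 11.8% of all genes. Their median was -0.77, or -0.57 from that of all genes (-0.31 without EED-/- H1 replicate 1). DCN (decorin) was the only member called, at 10.74 and 5.26 against 30.92 and 26.31 TPM, and it was not called after correction for transcript length at 3-fold. Its difference of -1.78 came to -1.33 without EZH2-/-/EZH1-/- H1 replicate 2. COL1A1 was at 1798.16 and 1132.77 against 4900.82 and 1813.10 TPM, and COL4A1 at 1808.86 and 420.49 against 2946.14 and 2103.90 TPM, and neither was called. The difference of COL4A1 was -1.51, or -0.46 without EZH2-/-/EZH1-/- H1 replicate 2. These transcripts are long (median 5953 bases over the list) and the list's median fell by 0.91 between EZH2-/-/EZH1-/- H1 replicates 1 and 2. Their difference from all genes was -0.43 without replicate 2 and -0.49 after correction for length.

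Secreted liver and yolk sac proteins followed 1 clone. Their median difference was -0.93, and 7 of the 20 tested were higher without overlap in EED-/- H1 and 0 in EZH2-/-/EZH1-/- H1. The 7 are near the share of all genes (30.6%), as are the 5 after scaling (21.0%). SERPINA1 (alpha-1 antitrypsin) was at 7.01 and 20.23 TPM in EZH2-/-/EZH1-/- H1 and at 33.04 and 107.27 TPM in EED-/- H1. APOA4, an apolipoprotein, was the only call, at 10.69 and 6.18 against 23.01 and 51.32 TPM. The EED-/- H1 replicates differed from each other by a median of -1.36 over this list, which is more than the lines did. The list stood -0.72 from all genes, -1.30 without EED-/- H1 replicate 1, -0.38 without EZH2-/-/EZH1-/- H1 replicate 2, and 0.16 from them without EED-/- H1 replicate 2, so its direction rested on that clone. AFP, the alpha-fetoprotein of yolk sac and fetal liver, was at 200.74 and 182.68 against 162.52 and 767.99 TPM, and TTR (transthyretin) at 1368.51 and 1746.31 against 534.83 and 1693.60 TPM, both overlapping. SUZ12-/- H1 was far above both lines, with AFP at 13208.42 and 13695.33 TPM.

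Cardiac genes leaned toward EZH2-/-/EZH1-/- H1 without a call, and epithelial genes did so mainly against EED-/- H1 replicate 1. Of 15 tested cardiac genes, 6 were higher without overlap in EZH2-/-/EZH1-/- H1 and 0 in EED-/- H1, against 11.8% and 30.6% of all genes. The difference was above 0 for 10 of the 15 and below 0 for 5. The list's median was 0.72, or 0.93 above that of all genes (0.60 without EZH2-/-/EZH1-/- H1 replicate 2, 0.51 without EED-/- H1 replicate 1 and 1.42 without EED-/- H1 replicate 2). ACTC1 (cardiac actin) was at 638.41 and 895.76 TPM against 225.70 and 462.20 TPM, and NPPB, a natriuretic peptide, at 633.85 and 742.25 against 246.79 and 437.96 TPM. The ventricular and atrial myosins MYH7 and MYH6 were at or below 0.14 TPM in all 4 samples. HAND1, a factor of heart and extraembryonic mesoderm, is not on the cardiac list. It was at 31.56 and 13.97 against 3.85 and 6.25 TPM and was called (adjusted p = 0.0385 in the limma fit of 12 samples). Of 16 epithelial genes, 7 were higher without overlap in EZH2-/-/EZH1-/- H1 and 0 in EED-/- H1, against the same shares of all genes. Their median was 0.38, or 0.59 above that of all genes (0.10 without EED-/- H1 replicate 1 and 1.12 without EED-/- H1 replicate 2). The EED-/- H1 replicates differed from each other by a median of -0.92 over this list, more than the lines did. Its sums overlapped, at 10947.17 and 9705.28 TPM in EZH2-/-/EZH1-/- H1 and 5803.97 and 12046.81 TPM in EED-/- H1. The tight-junction gene CLDN3 was at 16.26 and 13.51 against 3.98 and 5.65 TPM, while KRT8, a keratin, was at 5196.22 and 4174.12 against 2703.02 and 5680.16 TPM and overlapped.

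Trophoblast and amnion genes had 1 call in each direction. TFAP2C, a factor of trophectoderm and germ cells, was at 10.45 and 14.61 TPM in EZH2-/-/EZH1-/- H1 and at 3.47 and 3.81 TPM in EED-/- H1, and was not called. ITGB6, an epithelial integrin subunit, was at 16.97 and 14.39 against 50.26 and 64.65 TPM and was called (adjusted p = 0.0188 in the fit of 12 samples). KRT7, a simple-epithelium keratin, was at 135.67 and 162.08 against 255.52 and 383.02 TPM, without overlap and not called. Of the 17 tested, HAND1 and ITGB6 were called. Without overlap, 4 were higher in EZH2-/-/EZH1-/- H1 and 2 in EED-/- H1, against 11.8% and 30.6% of all genes. The median was 0.30, or 0.50 above that of all genes (0.18 without EED-/- H1 replicate 1).

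Proliferation genes leaned higher in EZH2-/-/EZH1-/- H1, by less than the replicates of either line differed. Of 20, none was called, and 6 were higher without overlap there and 0 in EED-/- H1, against 11.8% and 30.6% of all genes. The median of 0.42 was 0.63 above that of all genes (0.32 without EED-/- H1 replicate 1, 1.03 without EZH2-/-/EZH1-/- H1 replicate 2). Replicate 1 less replicate 2 had a median of 0.85 in EZH2-/-/EZH1-/- H1 and -0.61 in EED-/- H1. The list's sums overlapped, at 676.66 and 486.08 TPM against 417.24 and 516.60 TPM. CDC20, an activator of the anaphase-promoting complex, was at 45.67 and 28.06 TPM against 13.01 and 22.58 TPM. MKI67, which marks cycling cells, was at 11.27 and 1.57 against 2.55 and 5.90 TPM and overlapped. WT H1 was far above both lines, with CDC20 at 226.34 and 217.79 TPM. Among 9 tested CDK inhibitors and D cyclins no gene was called. CDKN2B, the inhibitor p15, was at 257.80 and 243.16 TPM in EZH2-/-/EZH1-/- H1 and at 561.78 and 427.81 TPM in EED-/- H1. CDKN1C, the inhibitor p57, went the other way at 134.24 and 111.74 against 59.38 and 69.51 TPM. Neither gene's samples overlapped. Of the 9, 1 was higher without overlap in EZH2-/-/EZH1-/- H1 and 3 in EED-/- H1, near the shares of all genes (11.8% and 30.6%). After scaling these were 2 and 3 (19.9% and 21.0% of all genes). CDKN2A and CDKN1A, which encode p16 and p21, were each at 334.57 TPM or more in every sample of both lines and overlapped.

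No difference was detected in HOX genes, the best known targets of PRC2. Of 36 tested, none was called and none had an unadjusted p under 0.05 in the fit of the 3 lines. Of these, 1 was higher without overlap in EZH2-/-/EZH1-/- H1 and 6 in EED-/- H1, both below the shares of all genes (4 and 3 after scaling), and the median was -0.22. HOXA10, for example, was at 41.75 and 42.56 TPM in EZH2-/-/EZH1-/- H1 and at 59.61 and 43.22 TPM in EED-/- H1, and listed at 0 in WT H1. The list summed to 541.49 and 587.72 TPM against 677.95 and 496.23 TPM, overlapping, and to at most 0.42 TPM in WT H1. A p that misses the threshold does not show that these levels are equal.

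No other list had a call beyond HAND1, which the primitive streak and early mesoderm list also holds. The median difference was -0.13 over the PRC1 subunits and over the EMT regulators, -0.12 over the smooth muscle genes and over the interferon-stimulated genes, -0.22 over the PRC2 subunits, -0.24 over the CDK inhibitors and D cyclins and -0.48 over the MHC class I genes. It was 0.03 over ectoderm and neural genes and over primitive streak genes, 0.08 over endoderm factors, 0.14 over intermediate mesoderm and kidney genes, 0.27 over imprinted genes and 0.10 over the 12 housekeeping genes. The endothelial list was thus the farthest below all genes and the cardiac list the farthest above.

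The remaining genes with the largest called differences, chosen after their values were seen, belonged to none of the lists. Toward EZH2-/-/EZH1-/- H1, SST (somatostatin) was at 32.97 and 27.07 TPM against 0.47 and 2.48 TPM, 20.4-fold, and AURKC, an aurora kinase of germ cells, at 18.25 and 20.93 against 0.93 and 1.05 TPM, 19.8-fold. PIWIL2, a PIWI protein of the germ line, was at 6.90 and 3.0 against 0.21 and 0.52 TPM. SST was listed near 1 TPM in WT H1, while AURKC was at 15.10 and 8.99 TPM there. The homeobox gene HMX1 was at 11.95 and 8.34 against 0.88 and 2.39 TPM. BEX5 was at 22.33 and 45.99 against 3.34 and 3.89 TPM, and TCEAL2 at 12.71 and 15.04 against 2.06 and 2.44 TPM. The others were C9orf135, MUSTN1, RWDD2B and the noncoding or unnamed loci LINC01164, LL22NC03-N95F10.1 and RP11-203J24.9, with differences from 2.11 to 2.80.

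Toward EED-/- H1, ALDH1A3, which makes retinoic acid, was at 30.10 and 30.91 TPM in EZH2-/-/EZH1-/- H1 and at 122.92 and 135.27 TPM in EED-/- H1. Its means of 30.5 ± 0.573 and 129 ± 8.73 TPM (SD, n = 2) had small errors, and its difference was -2.06 without replicate 2. CHRNA1, a subunit of the muscle acetylcholine receptor, was at 1.15 and 1.54 against 67.81 and 11.13 TPM. TNFSF4, the OX40 ligand, was at 5.96 and 5.05 against 117.80 and 20.89 TPM. For these 2 genes the groups did not overlap although the EED-/- H1 replicates differed widely. MEGF10, ZNF248, MSMP and LRRC17 had differences from -3.04 to -2.55. LIMS3 had the largest, -3.92, but has near-identical copies in the genome and its level is uncertain.

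HIST2H2AA3 was called in the fit of the 3 lines at -5.05 ± 0.31 (SE), adjusted p = 0.017 (0.107 without EZH2-/-/EZH1-/- H1 replicate 2, 0.494 and 0.112 without EED-/- H1 replicate 1 or 2). It was listed at 0 in both EZH2-/-/EZH1-/- H1 samples and at 36.08 and 28.51 TPM in EED-/- H1. Its near-identical copy HIST2H2AA4 showed the reverse, with 20.97 and 68.63 TPM in EZH2-/-/EZH1-/- H1 and 0 in both EED-/- H1 samples. In WT H1 replicate 1 the copies were at 0 and 7.55 TPM, and in replicate 2 at 9.56 and 0 TPM. Summed over both copies, the level was 20.97 and 68.63 TPM against 36.08 and 28.51 TPM, which overlap, so the sum did not separate the lines.

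SUZ12-/- H1 gave a further PRC2-null line to read the differences against. For POU5F1 and HIST2H2AA3, the genes called in the fit of the 3 lines, the mean of SUZ12-/- H1 was nearer to EZH2-/-/EZH1-/- H1. The position of HIST2H2AA3 is as uncertain as its level. The SUZ12-/- H1 mean was also nearer to EZH2-/-/EZH1-/- H1 for 18 of the 29 genes called higher there (62.1%). It was so for 62 of the 83 called higher in EED-/- H1 (74.7%), against 54.0% of all genes tested. Such shares depended on the fit (last section). The 29 and 83 genes were chosen in these same data for a difference between the 2 lines, which can itself move these shares and those of WT H1 below. The shares over all genes are therefore not a matched baseline. CDH5, at 23.66 and 19.04 TPM in SUZ12-/- H1, was one of the 62, as was ESM1 at 2.33 and 1.45 TPM. Of the 83, 71 were lower in WT H1 than in either line (85.5%, against 55.5% of all genes), and 13 of the 29 were higher in WT H1 than in either (44.8%, against 30.5% of all genes). Of the 29, 9 were lower in WT H1 than in either. At day 28 after doxycycline was withdrawn from EED-/- cells kept by inducible EED, a single sample had POU5F1 at 33.56 TPM, CDH5 at 88.58 TPM and CER1 at 247.96 TPM. It was nearer to EED-/- H1 than to EZH2-/-/EZH1-/- H1 for 39 of the 83 genes and for 15 of the 29, close to the 49.1% of all genes.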

How the data were processed

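RNA-seq libraries of EZH2-/-/EZH1-/- H1, EED-/- H1, SUZ12-/- H1, WT H1, EZH1-/- H1 and EZH2-/- H1, 2 samples each, were analysed, with 1 sample of EED-/-/EED-OE H1 at day 28 without DOX. Per the study's methods, total RNA was extracted and the libraries were made from it with a TruSeq RNA kit (v2). The authors deposited TPM per gene, rounded to 2 decimals, computed per the labels with Bowtie and RSEM. The labels name GRCh38 and hg19 without a role, so positions come from GENCODE release 44 (GRCh38) by gene identifier. No read counts were used here, so count-based tests were not run and the precision of each value from depth is unknown.

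Genes with TPM of at least 1 in 2 of the 4 samples were kept, and log2(TPM + 1) was fitted with limma 3.58.1 in R 4.3.3 (lmFit, contrasts.fit, eBayes with trend and robust) over the 6 samples of the 3 PRC2-null lines. A fold change on this scale understates that of low genes. Called genes had an adjusted p (Benjamini-Hochberg) up to 0.05 and a 3-fold difference. The fit was checked on simulated data, with independent normal noise of the same spread in every line. That check does not cover lines of unequal spread or a sample with a length trend. Groups came from the genotype labels.

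Genes were named as the PRC2 core, POU5F1, NANOG and SOX2, the called genes, and called or highly expressed members of 25 lists. As the main fit called 2 genes, the 15 largest differences in each direction of the fit of 12 samples and further list members were added after their values were seen. 1 of these genes is not reported here. The gene lists and the comparison were chosen with earlier results of these data known. TUBB3, a symbol of more than 1 gene, was left out.

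Alternatives were other sample sets, a replicate block, a pseudocount of 0.1, other filters, median-ratio scaling, other thresholds, and leaving out each sample. Correction for transcript length (median deviation in 20 bins of the longest transcript), the leave-one-out fits of 12 samples and their length-corrected fit were chosen after seeing the data.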

Additional observations from a re-analysis of the deposited data

How the results depend on the processing

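The counts of called genes, 1 higher in EZH2-/-/EZH1-/- H1 and 1 higher in EED-/- H1, were 29 and 83 in the fit of 12 samples, 3 and 1 with a pseudocount of 0.1, 0 and 1 without the filter, 0 and 0 with TPM of at least 1 in all 4 samples, 0 and 0 at an adjusted p of at most 0.01, 2 and 0 after length correction, and 45 and 80 in the length-corrected fit of 12. With a replicate block they were 2 and 2. The replicate numbers do not pair the clones (correlation of deviations -0.086), so the block has no basis in the design. The counts were also 1 and 1 in the fit of the 4 samples, after median-ratio scaling, without a fold cutoff and without trend and robust, where POU5F1 missed the threshold and AURKC passed in its place. Where limma called 0 genes, 2108 (all 4 samples) had an unadjusted p under 0.05, and 819 to 2765 did in the fits without 1 sample. Leaving out 1 sample gave 0 to 131 and 0 to 871 in the fit of the 3 lines, and 11 to 165 and 17 to 941 in that of 12. The highest counts are those without EZH2-/-/EZH1-/- H1 replicate 1, which leave the clone with the length trend alone, and the lone clone is assumed to vary like the others. The share of called genes at which SUZ12-/- H1 was nearer to EZH2-/-/EZH1-/- H1 ran from 50.6% to 100%.

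Among named genes that were not called, the log2 difference changed sign when 1 sample was left out, with a range of -1.31 to 0.34 for SOX2, -0.31 to 1.58 for LIN28A, -0.00036 to 0.61 for EED, -0.39 to 0.40 for EZH2, -1.50 to 0.22 for FLT1, -1.04 to 0.01 for CD34, -0.29 to 0.78 for KRT8, -0.95 to 1.31 for MKI67, -0.58 to 0.23 for CDKN2A, -0.89 to 0.15 for CDKN1A, -2.0 to 0.24 for AFP, -0.13 to 1.53 for TTR and -0.19 to 1.08 for BMP4. It was 0.08 for CDKN2A after scaling and 0.01 for CD34 after length correction. The cause was not tested. Over the alternatives, 311 list medians moved by less than the spread between replicates and 39 by more. Depth limits are unknown without counts.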
